A study of Homo sapiens with 8 samples.

Results

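The 10 genes described here encode parts of the contractile actin machinery and of the focal adhesions that anchor it, and their entries were looked up by symbol among 9245 RefSeq mRNA entries of 9241 distinct symbols. They comprise 3 myosin regulatory light chains (MYL9, MYL12A, MYL12B), the kinase ROCK1 and its antagonist RND3, the actin-binding proteins CALD1, TAGLN and FLNA, the actin-severing protein CFL2 and the focal adhesion protein ZYX. All 10 were measured. They were chosen by earlier results of these same data, mostly their high ratios in cells without mir-200c, so their values are a description and carry no test.

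The cells were SK-BR-3, an established human breast cancer line of luminal type with amplified ERBB2. The microRNA genes lie side by side on chromosome 12 and had been knocked out, singly or together, with TALENs, engineered nuclease pairs that cut at a designed site. The 8 libraries formed 4 groups: mir-141 knockout (clones 23 and 10), mir-200c knockout (clones 11 and 29), knockout of mir-141 and mir-200c together (double knockout, clones 55 and 61) and wild type. Each group had 1 library in set 1 and 1 in set 2, the first clone of each pair belonging to set 1, so that clone and set cannot be told apart and each knockout of a set was a single clone. Each deposited value is the log2 of a clone's level over that in the wild type sequenced in the same set. A ratio of 1 is a 2-fold higher level in the clone, and 0 is no difference.

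Non-muscle myosin II slides actin filaments past each other when its regulatory light chains are phosphorylated. ROCK1 phosphorylates the light chains and inhibits the phosphatase that reverses this, and RND3 counteracts ROCK1. The resulting stress fibres are bundled by cross-linkers such as filamin and end at focal adhesions, where zyxin gathers under tension. Epithelial cells that take on mesenchymal traits usually build more of these structures, and the mir-200 family is known for holding that change back.

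The mature microRNAs show how close the removed regulators are. RefSeq sequences (GRCh38.p14, plus strand) are printed with the seed, bases 2 to 8, in capitals, since the seed decides which mRNAs are bound. The seeds differ at 1 base, at position 4 from the 5′ end, which puts the microRNAs in different seed groups.
miR-200c-3p (chr12:6963742-6963764): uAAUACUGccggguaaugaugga
miR-141-3p (chr12:6964155-6964176): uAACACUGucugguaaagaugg

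What the columns can show was limited by how the sets relate. Across entries, the Pearson correlation between ratio columns was 0.502 to 0.709 within set 1 and 0.506 to 0.697 within set 2, where clones share a wild type, and −0.00224 to 0.0105 for the 9 pairs between sets. Set 2 holds other clones, and its values may also stand beside the wrong gene names. Neither was tested as the reason, and set 2 values are given only as listed. The SD of a column over entries was 0.307 to 0.456, and depth and expression levels are unknown. In bulk RNA, fewer cells with an mRNA and less of it per cell cannot be told apart. Whether the targeted microRNAs were absent was not analysed here. Of 13 luminal epithelial markers 12 were measured, and their median for loss of mir-200c in set 1 was −0.01, with CLDN4 highest at 0.21 and FOXA1 lowest at −0.29; ratios do not show whether a marker was present.

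Limma over both sets called 0 of 9245 entries (0%) at an adjusted p under 0.05 in each knockout against wild type and for the loss of each microRNA, with 248 to 821 entries at an unadjusted p under 0.05. Limma within set 1, with 1 residual degree of freedom, also called 0 (0%) for loss of mir-200c and for loss of mir-141, with 1113 and 587 entries at an unadjusted p under 0.05. If the names of set 2 are misplaced, the fits over both sets combine values of different genes, and their 0 says nothing about single genes. No entry of the actin system passed a test, and the values that follow are sizes in single libraries.

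In set 1, loss of mir-200c can be read from 2 pairs of libraries that have none in common: mir-200c knockout over wild type, and double knockout over mir-141 knockout. These are called the wild-type background and the mir-141 knockout background. Among the 10 genes, 6 were above 0.5 in both backgrounds (MYL9, FLNA, RND3, CALD1, CFL2 and ZYX), against 1.89% of all entries, and 0 were below −0.5 in both, against 0.541%. A ratio above 1 was seen for 0 of the 10 in the mir-141 knockout, where 0.584% of all entries had one. The same count was 5 in the mir-200c knockout, against 1.7% of all entries, and 2 in the double knockout, against 1.53%. The members were picked with these contrasts in view, so nothing is read from the excess.

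**Figure D1:**
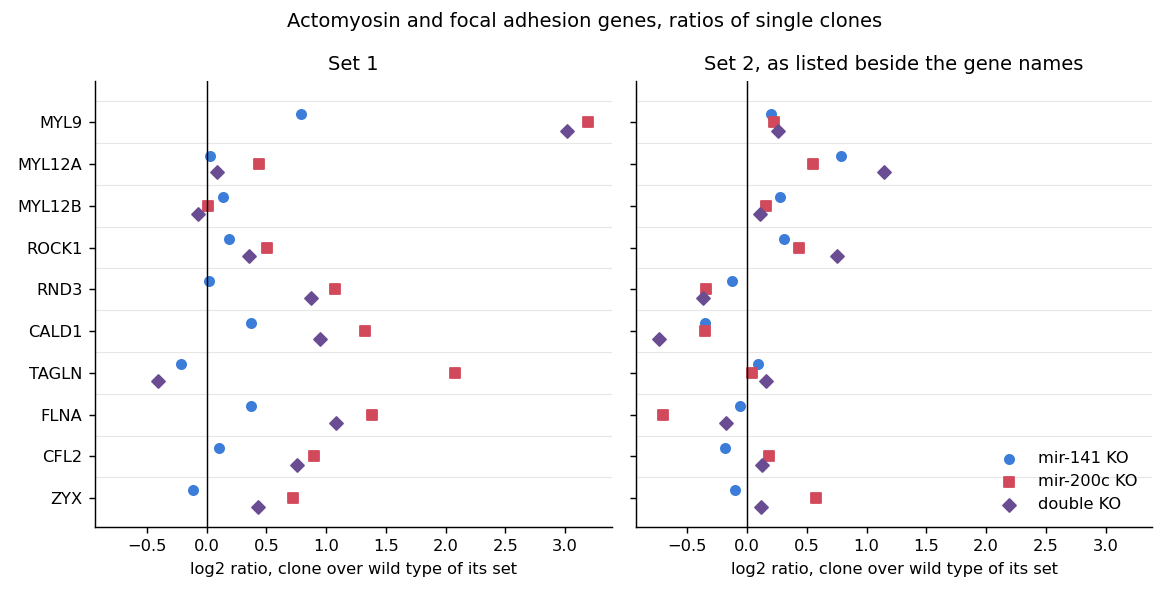
Log2 ratio of each clone over the wild type of its set (x axis) for the 10 genes (rows), with mir-141 knockout as circles, mir-200c knockout as squares and double knockout as diamonds; the left panel is set 1 and the right panel set 2 as listed, 1 clone per point and no error bars because each point is 1 library. In set 1 MYL9 reaches 3.20 and 3.01 in the clones without mir-200c, and TAGLN is at 2.08 in the mir-200c knockout only; in set 2 the highest point is MYL12A at 1.14.

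Of the regulatory light chains, MYL9 stood far from the others. MYL9, the light chain typical of smooth muscle and of contractile non-muscle cells (chr20:36541484-36551447 on GRCh38, GENCODE 29), had ratios of 0.79 in the mir-141, 3.20 in the mir-200c and 3.01 in the double knockout of set 1. These correspond to 1.73-fold, 9.16-fold and 8.08-fold the wild-type level. Both clones without mir-200c were thus well above the clone that kept it. For loss of mir-200c the difference was 3.20 in the wild-type background and 2.23 in the mir-141 knockout background, a mean of 2.71 ± 0.69 (SD, n = 2 backgrounds), the highest of all 9245 entries. MYL9 was also the only one of the 10 genes above 0.5 in the mir-141 knockout, where 1.18% of entries lay at or above it. The 10 nearest measured genes on chromosome 20, 5 to each side, had a median of −0.01 and a maximum of 0.25 for the same mean, well under the value of MYL9 itself.

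MYL12A and MYL12B encode the light chains used in most cell types and sit next to each other on chromosome 18 (chr18:3247481-3256236 and chr18:3261479-3278431). MYL12A had 0.03 in the mir-141, 0.44 in the mir-200c and 0.09 in the double knockout. MYL12B had 0.14 in the mir-141, 0.01 in the mir-200c and −0.07 in the double knockout. Neither reached 0.5 in any clone of that set, and their means for loss of mir-200c were 0.25 ± 0.27 and −0.10 ± 0.16. Their mRNAs are alike in places: 1.12% of the 70-base windows of MYL12A also occur in MYL12B, with a longest identical run of 77 bases, while MYL9 shares 0% of its windows with either. The sources used here do not say how reads from such stretches were assigned.

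Other subunits of myosin II gave smaller values. The heavy chain MYH10 had 0.10 in the mir-141, 1.21 in the mir-200c and 0.12 in the double knockout, high in the single mir-200c clone alone. The heavy chain MYH14 had −0.08 in the mir-141, 0.68 in the mir-200c and 0.11 in the double knockout. MYH9, the most widely used heavy chain, had −0.03 in the mir-141, 0.52 in the mir-200c and 0.19 in the double knockout. Both had the order of MYH10. The essential light chain MYL6 had 0.17 in the mir-141, 0.51 in the mir-200c and 0.31 in the double knockout, and MYL6B had 0.20 in the mir-141, 0.36 in the mir-200c and 0.18 in the double knockout. Over all 8 subunits the median for loss of mir-200c was 0.34, against −0.02 over all entries. MYL9 alone was above 0.5 in both backgrounds, against 1.89% of all entries. MYL9, MYL12A and MYL12B are among the 10 chosen genes, and 0 of the 5 other subunits were above 0.5 in both backgrounds. With so few genes nothing is read from these counts.

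ROCK1 and RND3 act on the light chains from opposite sides, and both had higher ratios without mir-200c in set 1. RND3 (chr2:150468195-150539011), had 0.02 in the mir-141, 1.08 in the mir-200c and 0.88 in the double knockout. The clones without mir-200c stood together at about double the wild-type level, 2.11-fold and 1.83-fold, and the mir-141 clone at 1.02-fold. Its loss of mir-200c was 1.08 and 0.85 in the wild-type and the mir-141 knockout background, a mean of 0.96 ± 0.16. ROCK1 (chr18:20946906-21111851) had 0.19 in the mir-141, 0.50 in the mir-200c and 0.35 in the double knockout. It was above 0 in every clone of set 1, and the mean for loss of mir-200c, 0.33 ± 0.24, was under 1.3-fold (1.26-fold).

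The actin-binding members split into 2 patterns. FLNA, filamin A, which cross-links filaments into networks (chrX:154348526-154374638), had 0.37 in the mir-141, 1.38 in the mir-200c and 1.08 in the double knockout. CALD1, caldesmon, which binds actin and tropomyosin and restrains myosin (chr7:134744252-134970728), had 0.37 in the mir-141, 1.32 in the mir-200c and 0.95 in the double knockout. Both were high in the clones without mir-200c and a little above wild type in the mir-141 clone. Their means for loss of mir-200c were 1.05 ± 0.47 and 0.95 ± 0.53.

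TAGLN, transgelin or SM22, an actin-bundling protein of smooth muscle (chr11:117199321-117204782), had −0.22 in the mir-141, 2.08 in the mir-200c and −0.41 in the double knockout. It was 4.24-fold the wild-type level in the single mir-200c clone and below wild type in the other clones. Its mean for loss of mir-200c, 0.94 ± 1.61, lies close to that of CALD1 although the 2 backgrounds, 2.08 and −0.20, point opposite ways. Only 0.281% of entries had a difference between backgrounds at least as large in size. With 1 clone for each state, the genotype and the clone cannot be told apart.

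**Figure D2:**
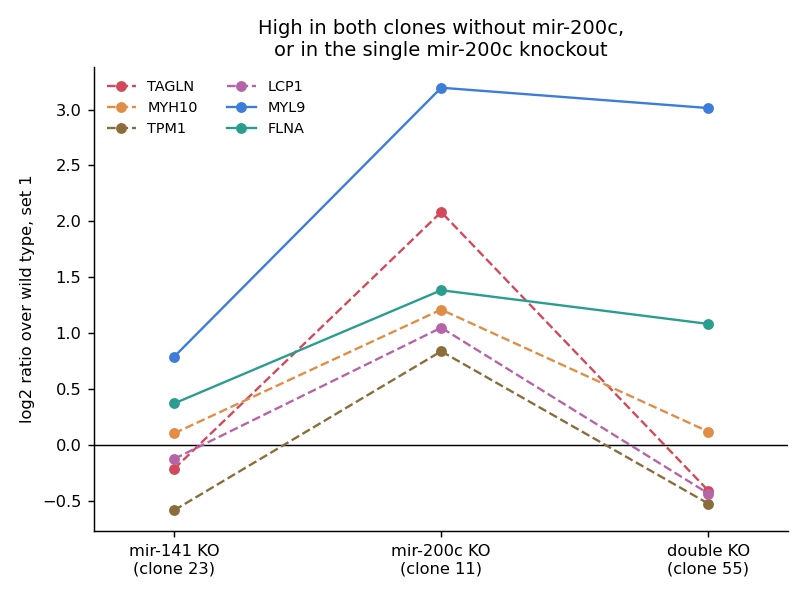
Log2 ratio over wild type in set 1 (y axis) for the 3 knockout clones (x axis), 1 library per point; lines join the values of 1 gene and imply no order of the clones. MYL9 and FLNA (solid lines) are high in both clones without mir-200c, while TAGLN, MYH10, TPM1 and LCP1 (dashed lines) are at 2.08, 1.21, 0.84 and 1.05 in the mir-200c knockout and at or below 0.12 in the double knockout.

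Among other cross-linkers, some had one of these patterns and some had neither. Of 28 listed stress fibre genes, 22 were measured, and PALLD, ACTN1, FLNA and CALD1 were above 0.5 in both backgrounds, against 1.89% of all entries, with 0 below −0.5, against 0.541%, and a median of 0.24. Of these, FLNA and CALD1 are among the 10 genes chosen with this contrast in view. Palladin, the scaffold PALLD, had 0.15 in the mir-141, 1.23 in the mir-200c and 1.04 in the double knockout. The α-actinin ACTN1 had 0.14 in the mir-141, 0.77 in the mir-200c and 0.76 in the double knockout. Each was at a similar height in both clones without mir-200c. By contrast, tropomyosin TPM1 had −0.59 in the mir-141, 0.84 in the mir-200c and −0.53 in the double knockout. L-plastin, LCP1, had −0.13 in the mir-141, 1.05 in the mir-200c and −0.44 in the double knockout, high in the single mir-200c clone. LIMA1 (0.11 in the mir-141, 0.14 in the mir-200c and −0.12 in the double knockout) and the epithelial plastin PLS1 (−0.13 in the mir-141, −0.36 in the mir-200c and −0.43 in the double knockout) were lowest. LCP1 is also a blood cell marker, and CORO1A (−0.01 in the mir-141, −0.54 in the mir-200c and −0.48 in the double knockout) and CD68 (0.52 in the mir-141, −0.48 in the mir-200c and 0.40 in the double knockout), the other measured markers of the 10 on that list, did not share its pattern.

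CFL2 is the cofilin of muscle and many other tissues, which severs and recycles actin filaments (chr14:34706769-34714690). It had 0.10 in the mir-141, 0.90 in the mir-200c and 0.75 in the double knockout, close together in both clones without mir-200c. The mean for loss of mir-200c was 0.77 ± 0.18, while its 10 nearest measured genes had a median of −0.18. Over the neighbourhoods of the members, each of 10 measured genes and those of MYL12A and MYL12B overlapping, such medians lay between −0.18 and 0.16. Single neighbours reached 0.78 beside ZYX, 0.60 beside ROCK1 and 0.40 beside MYL12A and MYL12B, above the means of these members. For the other members the highest neighbour lay below the member itself, at 0.66 beside TAGLN and 0.54 beside CFL2.

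The turnover list as a whole was centred on 0. Of 23 measured genes of 24, CFL2 alone was above 0.5 in both backgrounds, against 1.89% of all entries. Below −0.5 were 0, against 0.541%, and the median was near 0 as over all entries. CFL2 is among the 10 genes chosen with this contrast in view, so nothing is read from these counts. Gelsolin, GSN, had 0.23 in the mir-141, 1.17 in the mir-200c and 0.50 in the double knockout. The monomer-binding thymosin TMSB4X had 0.60 in the mir-141, 1.02 in the mir-200c and 0.66 in the double knockout. CORO1C, a coronin that binds actin filaments, had 0.05 in the mir-141, 0.46 in the mir-200c and 0.25 in the double knockout. PFN2, a profilin, was higher in all clones of set 1 (0.81 in the mir-141, 0.66 in the mir-200c and 0.93 in the double knockout). The severing and capping proteins SCIN (−1.31 in the mir-141, −1.18 in the mir-200c and −1.33 in the double knockout) and CAPG (−0.75 in the mir-141, −0.74 in the mir-200c and −0.95 in the double knockout) were lower in all of them. Values shared by all 3 clones cannot be told apart from a deviation of their common wild-type library.

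ZYX, zyxin, an adaptor of focal adhesions and stress fibres (chr7:143381080-143391111), had −0.11 in the mir-141, 0.72 in the mir-200c and 0.43 in the double knockout. Both clones without mir-200c were above the mir-141 clone, and the mean for loss of mir-200c was 0.63 ± 0.12, the smallest spread between backgrounds of the 10 genes.

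Among 37 focal adhesion genes, 32 were measured, 29 of them with a mean for loss of mir-200c above 0 and a median of 0.20; over all entries 46.5% were above 0. FHL2, PTK2B and ZYX, the last one of the 10 chosen genes, were above 0.5 in both backgrounds, against 1.89% of all entries, and 0 were below −0.5, against 0.541%. The LIM protein FHL2 had −0.57 in the mir-141, 1.06 in the mir-200c and 0.40 in the double knockout. The FAK-related kinase PTK2B had 0.16 in the mir-141, 0.79 in the mir-200c and 0.91 in the double knockout. SRC had −0.08 in the mir-141, 0.99 in the mir-200c and 0.13 in the double knockout, again high in the single mir-200c clone only. The actin-binding parvin PARVB, at −3.82 in the mir-141, 0.22 in the mir-200c and −2.24 in the double knockout, was low in both clones of set 1 without mir-141. The tensins TNS3 (−0.10 in the mir-141, −0.65 in the mir-200c and −0.40 in the double knockout) and TNS1 (0.17 in the mir-141, −0.71 in the mir-200c and 0.17 in the double knockout) were lowest for loss of mir-200c.

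Of 29 listed actin nucleators 24 were measured, with a median of 0.01, against −0.02 over all entries. Above 0.5 in both backgrounds were 0, against 1.89% of all entries, and below −0.5 were 0, against 0.541%. With so few genes these counts are near the shares of all entries, and nothing is read from them. The formin FHOD1 had 0.54 in the double knockout and ratios within 0.01 of wild type in both single knockouts. DIAPH3, a formin too, had 0.15 in the mir-141, 0.70 in the mir-200c and −0.16 in the double knockout. ARPC5 of the Arp2/3 complex (−0.11 in the mir-141, 0.24 in the mir-200c and 0.10 in the double knockout) and CYFIP1 of the WAVE complex (0.04 in the mir-141, 0.17 in the mir-200c and 0.24 in the double knockout) were the others of the 4 highest. WASL (−0.16 in the mir-141, −0.23 in the mir-200c and −0.32 in the double knockout) and NCKAP1 (−0.22 in the mir-141, −0.34 in the mir-200c and −0.36 in the double knockout) were lowest.

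**Figure D3:**
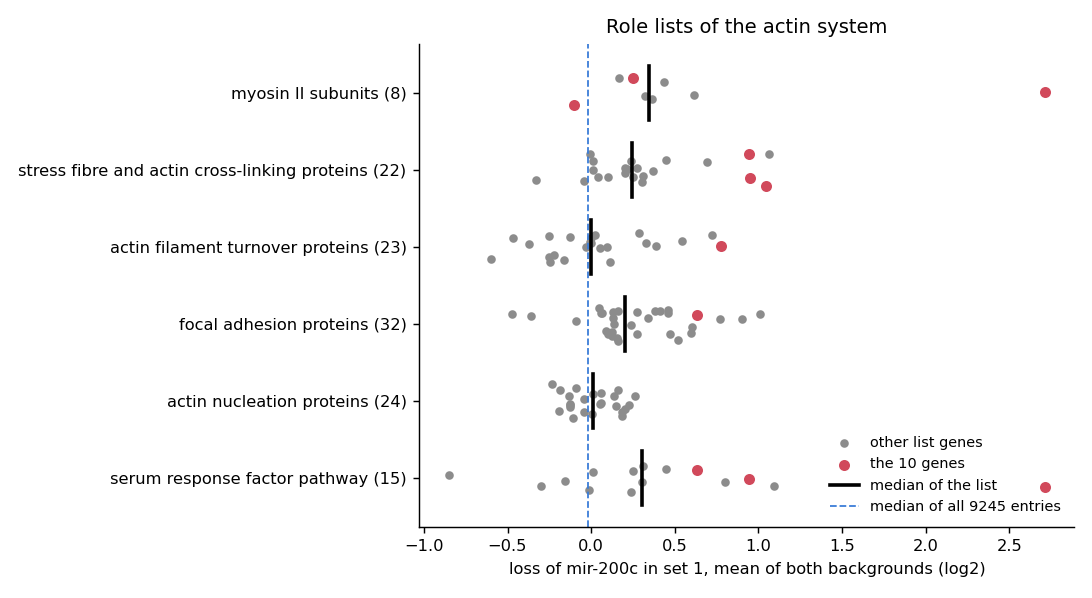
Loss of mir-200c in set 1 as the mean of both backgrounds (x axis, log2) for the measured entries of 6 role lists (rows, number of entries in brackets), each point 1 entry with vertical scatter for visibility only. Red points are those of the 10 genes on these lists (ROCK1 and RND3 are on none of them), black bars list medians (0.34 for myosin II, 0.01 for nucleators), and the dashed line the median of all entries, −0.02.

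Over all 7 lists, 143 entries were measured. Of the 133 that are not among the 10 genes, 6 (4.51%) were above 0.5 in both backgrounds, against 1.89% of all entries. Below −0.5 were 0, against 0.541%, and the median was 0.11, against −0.02 over all entries. The count over all 143 was 12 with both backgrounds and 36 from mir-200c knockout over wild type alone, that is without the mir-141 knockout or the double knockout of set 1. The share of all entries above 0.5 in that single comparison is not given here, so the 36 has nothing to be read against. The lists were drawn up with earlier results of these data known and share genes with each other.

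Serum response factor (SRF) and its actin-sensing coactivators MKL1 and MKL2 are known to drive many contractile genes. SRF itself had 0.10 in the mir-141, 0.51 in the mir-200c and 0.21 in the double knockout. MKL2 had −0.28 in the mir-141, −0.66 in the mir-200c and −0.23 in the double knockout. Of 15 measured genes among 20 on that list, MYL9, ZYX, CTGF and CYR61 were above 0.5 in both backgrounds, against 1.89% of all entries, and 0 below −0.5, against 0.541%, with a median of 0.31. Of these, MYL9 and ZYX are among the 10 chosen genes. The matricellular genes CTGF (0.52 in the mir-141, 1.48 in the mir-200c and 1.23 in the double knockout) and CYR61 (0.16 in the mir-141, 0.85 in the mir-200c and 0.91 in the double knockout), which YAP and TEAD control too, had the MYL9 pattern. EGR1, an immediate early gene, had 0.51 in the mir-141, −1.45 in the mir-200c and 0.26 in the double knockout, the opposite of TAGLN.

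Promoter windows of 300 bases (RefSeq, GRCh38.p14, 250 bases before to 50 after a start) were searched on both strands for the CArG box, the sequence SRF binds. Windows of 8 of the 10 genes were searched; MYL9 and TAGLN were not searched. Of the 17 windows of these 8 genes, 3 (17.6%) held the motif, 1 of FLNA and 2 overlapping ones of RND3. The share was 1.17% of the windows of measured genes and 1.29% of all windows. Both RND3 windows hold the same motif, so it is counted 2 times in the 17.6%. By gene, 2 of 8 (25.0%) had a motif, and no share by gene is given for all entries. Nothing is read from the excess, and a motif is no evidence of SRF binding. The motifs begin 94 bases upstream of the FLNA start and, for the overlapping RND3 windows, 72 and 100 bases upstream. They are shown with 10 bases to either side, the motif in capitals, because both genes were high without mir-200c.
FLNA (chrX:154374709-154374738, minus strand): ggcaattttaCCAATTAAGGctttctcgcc
RND3 (chr2:150487748-150487777, minus strand): ctcccaggctCCATAAAAGGggaggaggca

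Matches to the microRNA seeds were searched in the 3′ UTRs, where microRNAs mostly bind. In the longest annotated 3′ UTR of each gene (GENCODE 29), sites of 7 or 8 bases matching miR-200c-3p were found in 4 of the 10 genes (40%), against 30.8% of the other listed actin genes and 24.1% of 9216 entries with a 3′ UTR. For miR-141-3p the shares were 30% of the 10 genes, 24.8% of the other listed genes and 26% of entries. Sites of 8 bases for miR-200c-3p lay in 2 of the 10 genes, RND3 and CFL2, against 4.8% of entries. CFL2 had 6 miR-200c-3p sites in a 3′ UTR of 6096 bases, RND3 had 2 in 1792 bases, ROCK1 2 in 4478 bases and CALD1 1 in 2383 bases, and long 3′ UTRs hold more sites by length alone. Sites for miR-141-3p were found in CFL2 (2), CALD1 (1) and MYL12B (1).

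All miR-200c-3p sites of RND3, CALD1 and ROCK1 and the 2 8-base sites of CFL2 are shown, the matching bases in capitals and the paired end of the microRNA to the right. Coordinates are GRCh38.
RND3, 8 bases (chr2:150468394-150468421, minus strand): gcagcattatgctttgggCAGTATTAca
RND3, 7 bases (chr2:150468250-150468277, minus strand): tgtttggtcaatgtttccgCAGTATTta
CFL2, 8 bases (chr14:34712474-34712501, minus strand): cagatggtcaacttttttCAGTATTAtt
CFL2, 8 bases (chr14:34706830-34706857, minus strand): atctcagggaggtgtctgCAGTATTAtt
CALD1, 7 bases (chr7:134969951-134969978, plus strand): ataactattttcttatctgCAGTATTcc
ROCK1, 7 bases (chr18:20948354-20948381, minus strand): gagtgaggtagagatcaagCAGTATTtc
ROCK1, 7 bases (chr18:20948318-20948345, minus strand): ggatattcagttgatactgCAGTATTca

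Sites occurred in only some of the genes that were high without mir-200c. The genes with a miR-200c-3p site, RND3, CFL2, CALD1 and ROCK1, had means for loss of mir-200c of 0.96, 0.77, 0.95 and 0.33. MYL9 at 2.71, FLNA at 1.05, TAGLN at 0.94 and ZYX at 0.63 had none in these 3′ UTRs, nor had MYL12A at 0.25 or MYL12B at −0.10. A match is a description of the sequence and no evidence of binding.

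**Figure D4:**
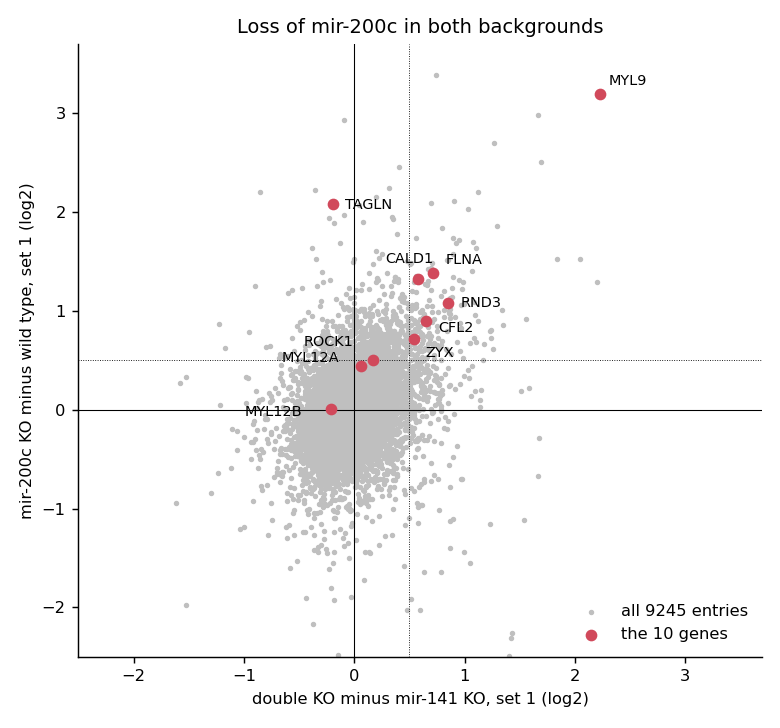
Loss of mir-200c in set 1 read as double knockout minus mir-141 knockout (x axis, log2) and as mir-200c knockout minus wild type (y axis, log2), each point 1 entry (grey) with the 10 genes in red; dotted lines mark 0.5 and 9 entries lie outside the axes. MYL9 is at 2.23 and 3.20, TAGLN at −0.20 and 2.08, and MYL12B at −0.21 and 0.01.

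For loss of mir-141, none of the 10 was above 0.5 or below −0.5 in both backgrounds of set 1 (0 and 0, against 1.07% and 0.627% of all entries). At such shares 0 of 10 is near the background. The genes were chosen mostly by their values without mir-200c, so no contrast between the microRNAs is read from it. The median of the means was −0.01, with MYL9 highest at 0.30 and TAGLN lowest at −1.35. In each of the 10 the ratio was lower in the double than in the single mir-200c knockout, with differences of −0.08 for MYL12B to −2.49 for TAGLN on the log2 scale. The same order held for 67.7% of the other listed actin entries and for 50.0% of all entries. Both ratios are taken to the same wild type, so this compares clone 55 with clone 11. The 10 genes were chosen with the ratios of both clones in view, so nothing is read from the excess. Of the 143 entries on the role lists, EGR1 was above 0.5 for loss of mir-141 in both backgrounds, and TPM1, FHL2 and PARVB were below −0.5.

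The entries whose 3 ratios of set 1 lay nearest to those of MYL9, by Euclidean distance over the 3 clones, were NT5E (1.10), KRT17 (1.38), CHST15 (1.52), GBP1 (1.70) and LCN2 (1.76). NT5E, the ecto-nucleotidase CD73, had 1.71 in the mir-141, 3.39 in the mir-200c and 2.45 in the double knockout. The basal keratin KRT17 had 0.94 in the mir-141, 2.20 in the mir-200c and 2.07 in the double knockout. Of smooth muscle markers 2 of 10 were measured, 1 of them above 0.5 for loss of mir-200c in both backgrounds, against 1.89% of all entries. With only 2 genes measured, nothing is read from this count. ACTG2 had −0.20 in the mir-141, 0.61 in the mir-200c and 0.63 in the double knockout. SMTN had −0.37 in the mir-141, −0.07 in the mir-200c and −0.17 in the double knockout. Of fibroblast markers 1 of 10 was measured, COL1A1, at −0.11 in the mir-141, −0.41 in the mir-200c and −0.15 in the double knockout. Their part in the values of MYL9 and TAGLN was not tested.

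In set 2 as listed, the 10 genes were nearer to wild type or differed in other directions, apart from a few. The lowest and highest ratios were −0.35 and 0.79 in the mir-141, −0.70 and 0.58 in the mir-200c and −0.74 and 1.14 in the double knockout. Of the 10, ZYX, CFL2 and MYL12B kept the order of the clones seen in set 1, and ROCK1 had a mean for loss of mir-200c of 0.44. In this set 0 of the 10 were above 0.5 for loss of mir-200c in both backgrounds. MYL9 was listed at 0.20 in the mir-141, 0.22 in the mir-200c and 0.26 in the double knockout, FLNA at −0.06 in the mir-141, −0.70 in the mir-200c and −0.17 in the double knockout. TAGLN was listed at 0.09 in the mir-141, 0.04 in the mir-200c and 0.16 in the double knockout. MYL9 and TAGLN were thus within 0.3 of wild type, and FLNA was below it in every clone.

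RND3 was listed at −0.13 in the mir-141, −0.34 in the mir-200c and −0.37 in the double knockout, and CALD1 at −0.35 in the mir-141, −0.35 in the mir-200c and −0.74 in the double knockout, both below wild type throughout. ZYX had −0.10 in the mir-141, 0.58 in the mir-200c and 0.11 in the double knockout. CFL2 had −0.19 in the mir-141, 0.18 in the mir-200c and 0.12 in the double knockout, and MYL12B had 0.28 in the mir-141, 0.16 in the mir-200c and 0.11 in the double knockout. Highest of the 10 in the mir-141 and the double knockout was MYL12A, with 0.79 in the mir-141, 0.55 in the mir-200c and 1.14 in the double knockout. ROCK1 had 0.31 in the mir-141, 0.43 in the mir-200c and 0.76 in the double knockout and was, with MYL9, MYL12A, MYL12B and TAGLN, above 0 in all 3 clones. Because the sets were unrelated across entries, neither a match nor a mismatch between them can be ascribed to a gene.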

How the data were processed

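Per the labels' protocols, poly(A) RNA was fragmented, adaptor-ligated and sequenced on a HiSeq instrument; the submitters' processing notes name TopHat2 and GRCh37.p10. The counting, scaling and filtering of reads are not given in the sources used here. For each entry the authors deposited the log2 of each clone's level over its set's wild type, in 6 columns for 9245 entries with medians of −0.0324 to −0.00837; depth is unknown, so no interval is given. Columns from outside the series numbered 0. Each wild type was set to 0, and limma 3.58.1 (R 4.3.3) was fitted to all entries, once with the 4 groups and once with the 2 losses as additive terms, set being a block in each, and once with the additive terms in set 1 alone, with Benjamini-Hochberg adjustment. The labels name a shared set for each number, and every ratio was taken within it, so the sets pair the libraries. P-values of the fit with 4 groups measure the spread between libraries of different clones. With additive terms, the difference between the 2 backgrounds of a loss enters the spread too. In set 1 alone that difference is the only spread. The fits and the site search were run on simulated data to see that they worked as intended. How often the fits would find a true difference in these libraries is not given here.

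The members and all lists were chosen with earlier results of these data known. Beside the 10 genes, the text names the 4 highest and 2 lowest other genes of each role list described by loss of mir-200c in set 1, measured cell type markers, and the 5 entries nearest to MYL9. GENCODE 29 (GRCh38) matched 9230 entries, 9009 by RefSeq accession. Alternatives were median centring, robust moderation, no block, other thresholds, set 2, and leaving out each library. One role list counts in the totals over 7 lists and is not reported here on its own.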

Additional observations from a re-analysis of the deposited data

Results flagged for a closer look

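In set 1, the loss of 1 microRNA pointed opposite ways in its 2 backgrounds, by at least 0.1 in each, for some of the 10 genes and of the named list genes. Each background is 1 pair of libraries, and the difference was not tested. Values are the knockout background minus the wild-type background, on the log2 scale. For loss of mir-200c, TAGLN differed by −2.28 (−0.20 in the mir-141 knockout background, 2.08 in the wild-type background), LCP1 by −1.36, DIAPH3 by −1.0 and LIMA1 by −0.37. For loss of mir-141, MYL9 differed by −0.97 (−0.18 in the mir-200c knockout background, 0.79 in the wild-type background), CALD1 by −0.75, FLNA by −0.67, ROCK1 by −0.34 and CFL2 by −0.25. Among list genes, loss of mir-141 gave −1.19 for MYH10, −1.0 for DIAPH3, −0.96 for TMSB4X, −0.90 for GSN, −0.77 for CTGF and −0.62 for ROCK2. Smaller differences were −0.41 for SRF, −0.38 for MYL6 and MYL6B, −0.37 for LIMA1 and −0.34 for PALLD. MKL2 alone ran the other way, at 0.72. The genes were named with their set 1 values known, so nothing is read from the shared sign.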

How the results depend on the processing

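The main limit is set 2, which holds other clones and whose ratios may stand beside other genes' names. With set 2 as listed, 0 in place of 6 of the 10 genes and 2 in place of 12 listed entries were above 0.5 for loss of mir-200c in both backgrounds, and the mean turned to −0.41 for FLNA, −0.37 for CALD1 and −0.29 for RND3; the cause was not tested. Averaged over both sets, MYL9 was at 1.43, CFL2 at 0.51, RND3 at 0.34, FLNA at 0.32 and CALD1 at 0.29. At a threshold of 1, 1 listed entry passed, MYL9, and at 0.3 there were 14, of which 5 in place of 3 were focal adhesion genes. Leaving out 1 library of set 1, which leaves 1 background, gave 14 to 36 listed entries, highest without the mir-141 or the double knockout: 1 to 5 for myosin II, 4 to 7 for stress fibres, 1 to 5 for turnover, 4 to 11 for focal adhesions, 1 each time for nucleators and 4 to 7 for the SRF list. Shares of all entries are not given here for the other thresholds, for set 2 or for 1 background alone. These counts therefore have nothing to be read against. Limma over both sets called 0 with and without the replicate block, with median centring and with robust moderation. Leaving out 1 library gave 0 to 1 entries in the mir-141 knockout, 0 to 1 in the mir-200c knockout and 0 to 2 in the double knockout. These were WDR20 and, in the double knockout, FAM86B2 without the wild type of set 2, SLC26A11 without the mir-200c clone of set 1 and HIST1H2BH without that of set 2, none of them on a role list; they were named after their values were seen. Counting sites of 8 bases only, 2 in place of 4 of the 10 genes had a miR-200c-3p site.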
